A study of Mus musculus with 16 samples.

Results

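Hepatic mRNA of 10 genes of insulin signalling and of FOXO1 action was examined in mice that had received gut microbiota. The genes were Insr, Irs1, Irs2, Akt2, Foxo1, Foxo3, Gcgr, Crtc2, Ppargc1a and Igfbp1, chosen by name, and they are 10 of the 20411 genes tested. They were measured by 18 of the 30671 probes kept, and for each gene the probe with the highest mean signal was used. Recipients were conventional C57BL/6 male mice, never given antibiotics, which entered the study at 6 weeks of age, then ate normal chow (NC) over 4 weeks, and were killed at 10 weeks after a fast of 6 h. Liver RNA was hybridised for 6 mice given the vehicle, reduced PBS (Conv + PBS; the labels call these mice not transplanted), 5 mice given the caecal content of lean mice (Conv + LM) and 5 mice given that of mice made obese by a high-fat diet (Conv + OM(HFD), or HFD-microbiota). The inoculum was pooled from several donors in each transplanted group, so differences between donors cannot be seen, and mice were housed together in cages, so cage and group may not be separable.

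Insulin binds a receptor tyrosine kinase, which phosphorylates docking proteins and thereby activates phosphatidylinositol 3-kinase and AKT. In the liver AKT phosphorylates FOXO1 and keeps it out of the nucleus, and genes that FOXO1 activates during fasting are shut down after a meal. Glucagon acts in the opposite sense through its receptor, cAMP and the coactivator CRTC2, and both arms meet on gluconeogenic genes. Much of this control acts on phosphorylation and on protein location, which an mRNA array does not measure.

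The sequences just upstream of 4 of the genes are shown because they hold the letters through which insulin and cAMP are known to act on transcription. Windows of the 250 bases before each annotated start were read from RefSeq promoters (GRCm38.p6) and were held for 8 of the 10 genes. Capitals mark TGTTTTG (an insulin response site, bound by FOXO proteins), its other form TATTTTG, the shorter core TGTTT and the cAMP half-site TGACG, each on either strand. On the other strand the first of these reads CAAAACA and the core reads AAACA, while the half-site then becomes CGTCA. The stretches are chr11:7197587-7197786 on the plus strand for Igfbp1, and chr8:11008930-11009049, chr1:82291440-82291589 and chr5:51567726-51567845 on the minus strand for Irs2, Irs1 and Ppargc1a.
Igfbp1: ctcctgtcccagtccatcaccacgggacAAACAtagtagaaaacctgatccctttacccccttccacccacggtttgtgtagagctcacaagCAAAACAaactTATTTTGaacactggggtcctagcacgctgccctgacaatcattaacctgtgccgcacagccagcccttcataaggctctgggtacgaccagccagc
Irs2: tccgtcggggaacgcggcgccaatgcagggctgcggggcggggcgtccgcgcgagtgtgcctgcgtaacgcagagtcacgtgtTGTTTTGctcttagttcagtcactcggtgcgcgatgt
Irs1: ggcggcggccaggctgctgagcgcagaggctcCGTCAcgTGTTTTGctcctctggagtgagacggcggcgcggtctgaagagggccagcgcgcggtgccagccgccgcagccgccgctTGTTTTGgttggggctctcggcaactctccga
Ppargc1a: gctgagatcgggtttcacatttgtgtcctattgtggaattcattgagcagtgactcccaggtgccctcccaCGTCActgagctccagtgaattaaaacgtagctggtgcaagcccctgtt

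The 8 genes had 11 windows, since Akt2 has 4 annotated starts, and a gene was counted if any of its windows held the letters. TGTTTTG was found before the start of 3 of the 8 genes, Irs1, Irs2 and Igfbp1 (3 of the 11 windows), and in 5.56% of all 32851 windows of the same length. Igfbp1 alone of the 8 also held TATTTTG, which 3.95% of all windows hold, and its copies of both forms lay 4 bases apart, at positions -108 to -102 and -97 to -91 from the start. The core TGTTT, which lies within TGTTTTG, was found for 5 genes (7 of the 11 windows) and in 46.4% of all windows. The half-site TGACG was found for Irs1, Akt2, Foxo3 and Ppargc1a (5 of the 11 windows) and in 17.77% of all windows, and neither TGTTTAC (3.17% of all windows) nor the full cAMP element TGACGTCA (1.55%) was found before any of the 8 genes. These matches describe letters in a short window and were not tested for binding.

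Values below are log2 signals relative to the 75th percentile of the array, so 0 is a probe brighter than 3 in 4 of all probes, and a difference of 1 is a doubling. The 75th percentile lay between an intensity of 152 and 220 over the 16 arrays, and 49.8% to 58.3% of probes were well above background. All 8 hepatocyte markers were well above background on every array, with a summed level of 5776 to 7455. Of 5 muscle markers 2 were so as well and Ckm on no array, and of 6 pancreas markers 3 were so as well and Cpa1 on no array; the 3 tested of each list had summed levels of 0.376 to 0.680 and 8.39 to 12.4. In whole liver, fewer cells of a type and less RNA per cell cannot be told apart. Conv + PBS mouse 1 and Conv + OM(HFD) mouse 25 stood apart: the summed level of the 4 neutrophil markers tested (of 5; linear signal relative to the 75th percentile) was 30.7 and 28.8 in these mice and 0.654 to 1.56 in the other 14, and that of 5 Kupffer cell markers was 188 and 84.0 against 25.7 to 47.9. The summed level of the 4 adipose markers tested was 14.3 in Conv + LM mouse 15 and 7.98 in Conv + LM mouse 16, against 3.81 to 6.31 in the other 14. The arrays lay on 2 slides that each held all 3 groups, with 3 Conv + PBS mice on both.

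The receptor gene Insr passed no test between the groups. Its level in the Conv + PBS mice had a lowest value of 0.15, a median of 0.37 and a highest value of 0.41. The Conv + LM mice 13 to 17 had 0.60, -0.38, 0.04, 0.29 and 0.15, and the Conv + OM(HFD) mice 25, 26, 28, 29 and 30 had 0.12, 0.30, -0.04, 0.15 and 0.39. The Conv + LM values ranged on either side of all the others. The log2 fold change was -0.12 ± 0.14 (SE) for Conv + OM(HFD) vs. Conv + PBS (unadjusted limma p = 0.390, exact permutation p = 0.188) and -0.17 ± 0.14 for Conv + LM vs. Conv + PBS (p = 0.250, exact permutation p = 0.338). Without Conv + LM mouse 13, the highest of its group, the latter was -0.28 (unadjusted limma p = 0.0404, exact permutation p = 0.0381), and without mouse 14, the lowest, it was -0.04. A second, dimmer Insr probe gave 0.10 and 0.00 for these comparisons, and its correlation with the first across the 16 mice was -0.21, so the estimate rests on the brighter probe.

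The docking proteins IRS1 and IRS2 carry the signal from the receptor, and the Irs2 gene is itself repressed by insulin in liver. Irs1 stood at 2.14 ± 0.16 (SD, n = 6) in Conv + PBS, 2.17 ± 0.16 (n = 5) in Conv + LM and 2.001 ± 0.26 (n = 5) in Conv + OM(HFD). Mouse 25, at 1.58, had the lowest Irs1 of all mice, and the other 15 lay between 1.92 and 2.39. None of the 3 differences passed the test (exact permutation p = 0.342, 0.760 and 0.270 for Conv + OM(HFD) vs. Conv + PBS, Conv + LM vs. Conv + PBS and Conv + OM(HFD) vs. Conv + LM). Irs2 had a lowest value of 3.18, a median of 3.51 and a highest value of 4.29 in Conv + PBS. It was 3.55, 3.04, 3.15, 3.13 and 4.68 in Conv + LM mice 13 to 17, and 3.30, 3.46, 3.55, 4.08 and 4.41 in Conv + OM(HFD) mice 25, 26, 28, 29 and 30. Each group thus held mice with little and mice with much Irs2 mRNA, over a 3.12-fold range, and the groups overlapped. The log2 fold change was 0.18 ± 0.30 for Conv + OM(HFD) vs. Conv + PBS (exact permutation p = 0.50), -0.07 ± 0.30 for Conv + LM vs. Conv + PBS (exact permutation p = 0.825) and 0.25 ± 0.31 for Conv + OM(HFD) vs. Conv + LM (exact permutation p = 0.516). The last of these was 0.54 without Conv + LM mouse 17, the mouse with the most Irs2 (unadjusted limma p = 0.0457, exact permutation p = 0.0635), and 0.09 without Conv + OM(HFD) mouse 30. Without the latter mouse, the difference between Conv + OM(HFD) and Conv + PBS was 0.02, and over leaving out each mouse it ranged from 0.02 to 0.33.

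Downstream of the docking proteins, Akt2 encodes the main AKT isoform of insulin action in liver, and Foxo1 and Foxo3 encode transcription factors that AKT holds in the cytoplasm. Akt2 varied little: the Conv + PBS mice spanned 4.60 to 4.72, the Conv + LM mice 4.50 to 4.80 and the Conv + OM(HFD) mice 4.40 to 4.73. Its log2 fold change was -0.09 ± 0.08 for the HFD-microbiota and -0.06 ± 0.08 for the lean microbiota vs. Conv + PBS (exact permutation p = 0.208 and 0.260). Both other Akt2 probes, dimmer and with r of 0.05 and 0.08 to the first across the 16 mice, gave -0.10 ± 0.11 and -0.03 ± 0.14 for the HFD-microbiota and, with the opposite sign, 0.09 ± 0.11 and 0.22 ± 0.14 for the lean microbiota, so the Akt2 values rest on the brightest probe. Foxo1 was likewise close between groups, with a mean of 4.77 ± 0.11 (SD, n = 5) in Conv + OM(HFD), 4.71 ± 0.14 (n = 5) in Conv + LM and 4.73 ± 0.23 (n = 6) in Conv + PBS. The lowest Foxo1 value, 4.35, was that of Conv + PBS mouse 1, and the 3 exact permutation p-values were 0.777, 0.823 and 0.373. A second Foxo1 probe (r = 0.63 with the first) gave 0.14 ± 0.14 for Conv + LM vs. Conv + PBS, against -0.03 ± 0.11.

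Foxo3 had a lowest value of 0.94, a median of 1.56 and a highest value of 1.69 in Conv + PBS. It was 1.54, 1.36, 1.12, 1.36 and 1.46 in Conv + LM mice 13 to 17, and 0.99, 1.17, 1.36, 1.15 and 1.42 in Conv + OM(HFD) mice 25, 26, 28, 29 and 30. Of the Conv + OM(HFD) mice 4 lay below every Conv + PBS mouse other than mouse 1, which had the lowest value of all, and mouse 30 lay within the Conv + PBS values. The log2 fold change for Conv + OM(HFD) vs. Conv + PBS was -0.25 ± 0.13 (95% interval -0.53 to 0.03; unadjusted limma p = 0.0734, adjusted p = 0.99998, exact permutation p = 0.110), and it was -0.34 and -0.19 within the first and second slide. The difference was -0.36 without Conv + PBS mouse 1 (unadjusted limma p = 0.00351, exact permutation p = 0.0159) and -0.30 without that mouse and Conv + OM(HFD) mouse 25 (unadjusted limma p = 0.0111, exact permutation p = 0.0238). With slide as a block it was -0.27 (unadjusted limma p of 0.0488). The other Foxo3 probes, both much dimmer, gave -0.05 ± 0.14 and -0.09 ± 0.23. On deviations from group means, Foxo3 had r of -0.76 with the log2 summed Kupffer cell markers and -0.72 with the neutrophil markers. Mice 1 and 25, which had the highest sums of both lists, also had the lowest Foxo3 values, 0.94 and 0.99. The r without these mice was not computed, and the part of these markers in the result was not tested. Conv + LM vs. Conv + PBS gave -0.10 ± 0.13 (exact permutation p = 0.504).

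On the glucagon side, the receptor gene Gcgr was among the steadiest of the set, between 7.25 and 7.63 in all 16 mice, and its 3 log2 fold changes were 0.01, 0.02 and -0.01, each with an SE of 0.08. Crtc2, whose product is the cAMP-responsive coactivator of CREB, stood at 2.74 ± 0.14 (SD, n = 6) in Conv + PBS, 2.79 ± 0.13 (n = 5) in Conv + LM and 2.86 ± 0.12 (n = 5) in Conv + OM(HFD), and the groups overlapped (exact permutation p = 0.199, 0.554 and 0.444). Its difference between Conv + OM(HFD) and Conv + PBS was 0.27 within the first slide and -0.06 within the second, and a second, much dimmer probe gave -0.07 ± 0.16.

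Ppargc1a encodes PGC-1α, the coactivator that fasting induces in liver and that works with FOXO1 on gluconeogenic genes. It had a lowest value of 1.78, a median of 2.48 and a highest value of 2.70 in Conv + PBS. The Conv + LM mice 13 to 17 had 2.21, 3.04, 2.34, 2.72 and 2.41, and the Conv + OM(HFD) mice 25, 26, 28, 29 and 30 had 3.23, 2.53, 2.70, 2.34 and 2.88. The Conv + OM(HFD) mean was the highest and that of Conv + PBS the lowest, with overlap between all groups. The log2 fold change was 0.36 ± 0.20 (95% interval -0.05 to 0.78) for Conv + OM(HFD) vs. Conv + PBS (unadjusted limma p = 0.0824, adjusted p = 0.99998, exact permutation p = 0.123), 0.17 ± 0.20 for Conv + LM vs. Conv + PBS (exact permutation p = 0.431) and 0.19 ± 0.20 for Conv + OM(HFD) vs. Conv + LM (exact permutation p = 0.413). A second Ppargc1a probe gave 0.40 ± 0.24 for the first of these. The extremes were the mice with raised neutrophil markers, mouse 1 with the least and mouse 25 with the most Ppargc1a, and without both the first difference was 0.12. It was 0.46 without Conv + OM(HFD) mouse 29 (unadjusted limma p = 0.0375, exact permutation p = 0.0571) and 0.33 with slide as a block.

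Igfbp1 encodes a secreted binding protein of insulin-like growth factors and is among the liver genes that insulin represses most directly through FOXO1. It varied more than any other gene of the set, over a 4.78-fold range. In Conv + PBS the lowest value was 6.52, the median 7.86 and the highest 8.77. It was 6.60, 7.55, 7.67, 7.80 and 7.91 in Conv + LM mice 13 to 17, and 7.98, 7.79, 7.99, 7.41 and 8.35 in Conv + OM(HFD) mice 25, 26, 28, 29 and 30. The Conv + PBS mice alone reached from the lowest to the highest Igfbp1 of the study, and both transplanted groups fell inside that span. The log2 fold change was 0.13 ± 0.35 for Conv + OM(HFD) vs. Conv + PBS (95% interval -0.61 to 0.88; exact permutation p = 0.747), -0.27 ± 0.35 for Conv + LM vs. Conv + PBS (-1.01 to 0.48; exact permutation p = 0.552) and 0.40 ± 0.37 for Conv + OM(HFD) vs. Conv + LM (-0.38 to 1.18; exact permutation p = 0.206). The direction of the first depended on Conv + PBS mouse 1, without which it was -0.12. The second was -0.04 and the third 0.17 without Conv + LM mouse 13, and on the first slide, which holds that mouse, they were -1.06 and 1.03, against 0.38 and -0.19 on the second.

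**Figure D1:**
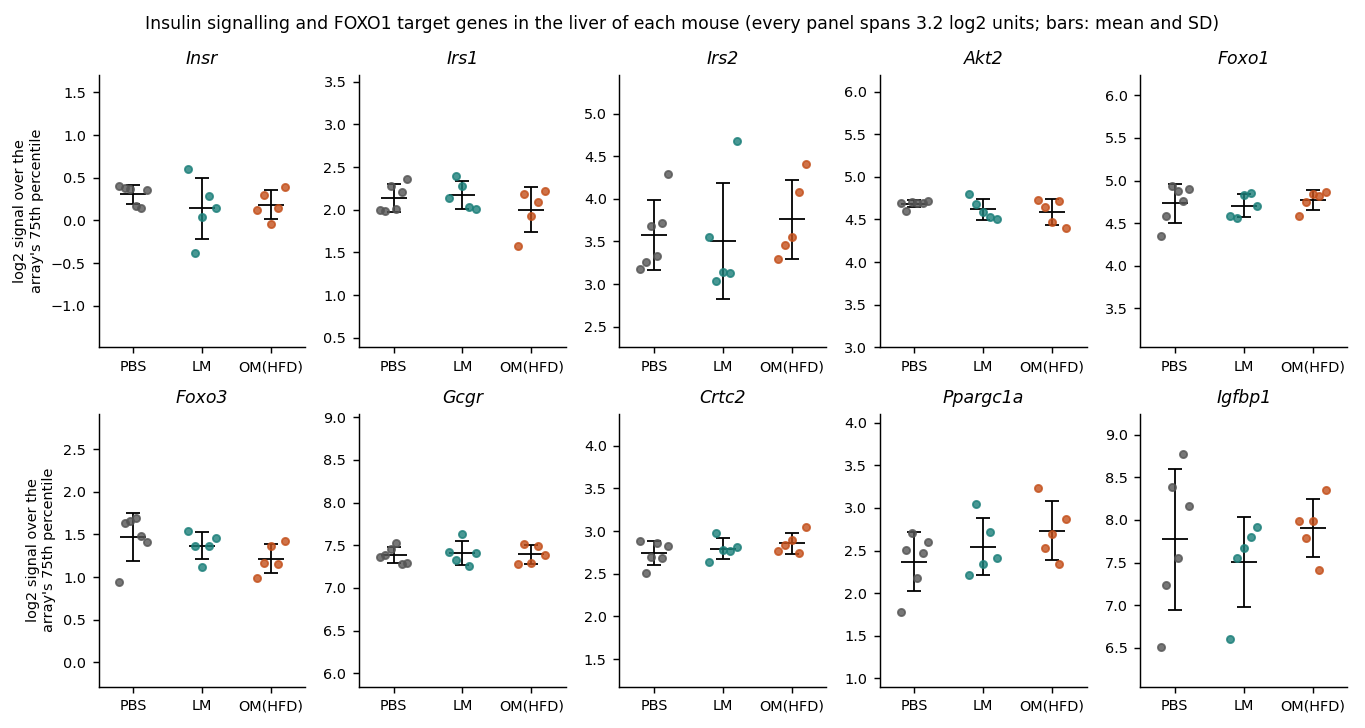
Log2 signal over the array's 75th percentile of the 10 genes, 1 point a mouse (6 given PBS, 5 given lean and 5 given HFD-microbiota), placed by mouse number, with the mean and SD as bars; every panel spans the same number of log2 units. Igfbp1, Irs2 and Ppargc1a vary most between mice, Akt2 and Gcgr least, and the groups overlap in all 10 panels.

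Counted over the set, 0 of the 10 genes passed an unadjusted limma p of 0.05 in any of the 3 comparisons, 0 passed the exact permutation test and 0 passed the methods' t-test. Over all genes tested, limma called 3.25% for Conv + OM(HFD) vs. Conv + PBS, 3.88% for Conv + LM vs. Conv + PBS and 2.67% for Conv + OM(HFD) vs. Conv + LM, and 0 after Benjamini-Hochberg adjustment. Neither did any gene of the set have groups that did not overlap, which held for 0.23%, 0.279% and 0.436% of all genes. With 10 genes and shares this small, a count of 0 does not set the genes apart from the rest of the array. The median log2 fold change of the 10 genes was 0.03, -0.05 and 0.05, beside 0.00, -0.01 and 0.00 over all genes, and 6, 4 and 6 of the 10 were positive. Both comparisons with Conv + PBS share those 6 mice. The 95% intervals bound what may have been missed: the widest, for Igfbp1, reached 1.18 in size, while those of Gcgr stayed within 0.20 of 0 in each comparison.

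**Figure D2:**
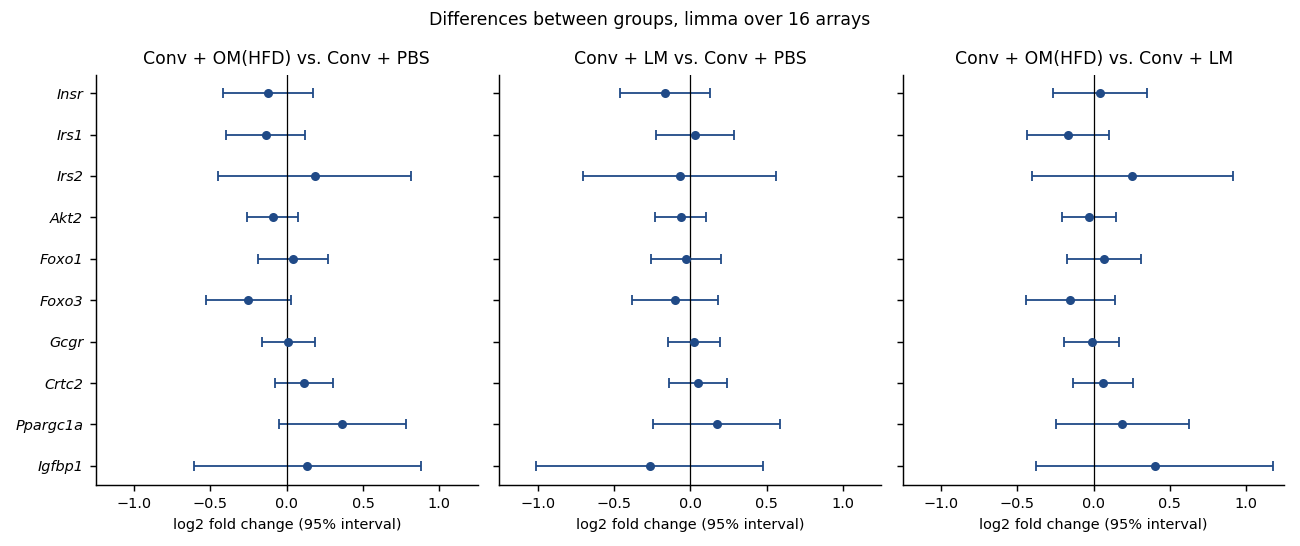
Log2 fold change of each gene in the 3 comparisons of the groups, from 1 limma model over 16 arrays, with points for the estimates and bars for 95% intervals. All 30 intervals cover 0, and those of Igfbp1 and Irs2 are the widest.

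The spread between mice of 1 group was set against that of all genes. The within-group SD of Igfbp1, 0.62 on the log2 scale, was larger than that of 90.6% of all genes, that of Irs2 (0.53) larger than 86.2% and that of Ppargc1a (0.34) larger than 69.5%. Akt2 (0.11), Gcgr (0.11) and Crtc2 (0.13) were at the other end, above 5.53%, 6.55% and 12.1% of all genes, and Foxo1 (0.17) lay above 28.7%. Irs1, which like Irs2 and Igfbp1 holds TGTTTTG before its start, had an SD of 0.20, above 37.6% of genes.

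It was then asked whether the genes varied together across the 16 mice, after the group means had been removed. Of the 45 pairs, 27 correlated positively and 18 negatively, 0 passed a Benjamini-Hochberg adjusted permutation p of 0.05 by Pearson's r or by Spearman's rho, and 2 had an unadjusted p below it by r and 3 by rho. The median size of r was 0.26, beside 0.23 over pairs among every 20th gene of the array. Igfbp1 took part in both pairs with a low unadjusted p by r. Its r with Foxo1 was 0.67 (permutation p = 0.0204, adjusted 0.459; rho 0.59, permutation p = 0.0482, adjusted 0.646), and it was 0.52 and 0.83 within the slides. Its r with Ppargc1a was 0.63 (permutation p = 0.0137, adjusted 0.459; rho 0.53, permutation p = 0.0435, adjusted 0.646), and it was 0.41 and 0.90 within the slides. The third pair by rho was Gcgr with Ppargc1a (rho -0.56, permutation p = 0.0423, adjusted 0.646, and r -0.50). Conv + PBS mouse 1 was lowest in Foxo1, Ppargc1a and Igfbp1. Without the 2 mice farthest from the median of Foxo1 (Conv + PBS mouse 1 and Conv + LM mouse 14) the first r was 0.48 (permutation p = 0.133), and without those farthest from the median of Ppargc1a (mice 1 and 25) the second was 0.50 (permutation p = 0.0915), so both rest in part on these mice. Insr, Irs1 and Irs2 had r between -0.09 and 0.27 with each other.

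**Figure D3:**
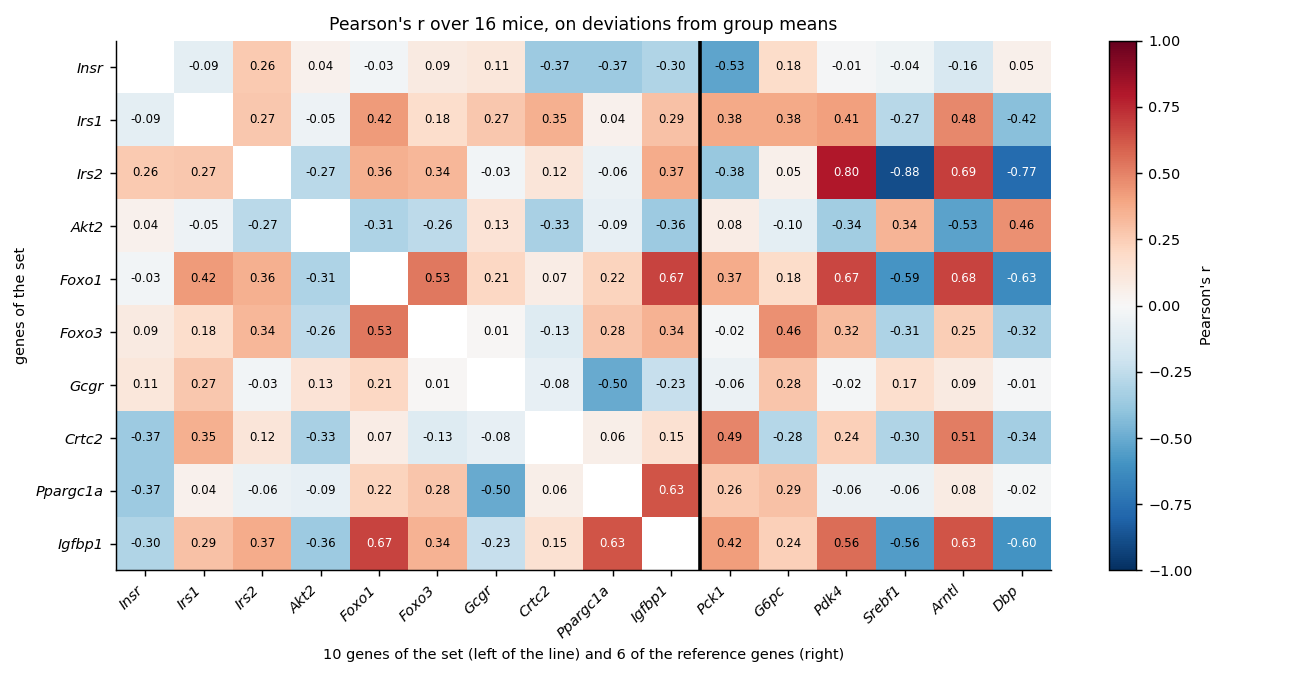
Pearson's r over the 16 mice, on deviations from group means, of the 10 genes with each other (left of the line) and with 6 of the reference genes of fasting, feeding and the clock (right), with colour running from blue at -1 to red at 1. The strongest cells are those of Irs2 with Srebf1, Pdk4 and Dbp.

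The same genes were set against 7 reference genes, among them Pck1 and G6pc (gluconeogenesis), Pdk4 (a fasting-induced kinase that spares glucose), Srebf1 (induced by insulin) and Arntl and Dbp (of the circadian clock). Of the 70 pairs, 3 passed the adjusted threshold by both r and rho, and all 3 were pairs of Irs2. Irs2 fell as Srebf1 rose from mouse to mouse, with r = -0.88 (permutation p = 0.00017, adjusted 0.0119) and rho = -0.87 (permutation p = 4e-05, adjusted 0.0028), and with r = -0.79 and -0.94 within the slides. Its r was 0.80 with Pdk4 (permutation p = 0.00049, adjusted 0.0172; rho 0.80, permutation p = 0.00072, adjusted 0.0252) and -0.77 with Dbp (permutation p = 0.00122, adjusted 0.0285; rho -0.76, permutation p = 0.00184, adjusted 0.0429). Within the slides these were 0.76 and 0.87 for Pdk4 and -0.78 and -0.83 for Dbp. In size, the r of Irs2 with Srebf1 was reached or passed by 0.0934% of all genes, with Pdk4 by 0.954% and with Dbp by 1.49%.

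These calls depended on single mice. Without Conv + LM mouse 17 and Conv + OM(HFD) mouse 30, r was -0.81 for Srebf1 (permutation p = 0.0034, adjusted 0.238), 0.74 for Pdk4 (permutation p = 0.0120, adjusted 0.306) and -0.63 for Dbp (permutation p = 0.0407, adjusted 0.493). Without mice 1 and 25 it was -0.87, 0.78 and -0.74 (adjusted permutation p = 0.0665, 0.131 and 0.193). Of the 70 pairs 0 passed adjustment without mice 1 and 25, nor did any when each of the 10 genes was tested without the 2 mice farthest from its own median. Left out 1 at a time, Conv + PBS mouse 6 or Conv + LM mouse 17 left 0 pairs past adjustment, Conv + OM(HFD) mouse 25 left 1, and Conv + PBS mouse 3 left 6. Mice with low and with high Pdk4 were found in every group: it was -1.09 to -0.15 in mice 1, 2, 13, 14 and 25 and 3.50 to 4.77 in mice 5, 6, 17, 29 and 30, and Irs2 was 3.04 to 3.55 in the former and 3.71 to 4.68 in the latter. The low Pdk4 values thus fell on low and the high ones on high mouse numbers within each group. Irs2 followed the numbers less closely in Conv + LM, where it rose in the order of mice 14, 16, 15, 13 and 17. What the numbers follow is not given in the sources used here, and its part in the spread of Irs2 and in these correlations was not tested. The reference genes are no independent witnesses, since Pdk4 correlated with Srebf1 at r = -0.92 and with Dbp at r = -0.94, and Arntl with Dbp at r = -0.95. The first principal component of all genes had r of 0.84 with Foxo1, 0.71 with Irs2 and 0.58 with Igfbp1. Foxo1 also had r of -0.71, -0.66 and 0.77 with the log2 summed Kupffer cell, neutrophil and hepatocyte markers, whose part in its correlations was not tested. Mice 1 and 25, with the highest Kupffer cell and neutrophil sums, each had the lowest Foxo1 of its group. These r were not computed without them. The r of Irs2 with the gluconeogenic genes was -0.38 for Pck1 and 0.05 for G6pc. Foxo1 and Igfbp1 had r of 0.68 and 0.63 with Arntl, which did not pass adjustment (adjusted permutation p = 0.0810 and 0.101).

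**Figure D4:**
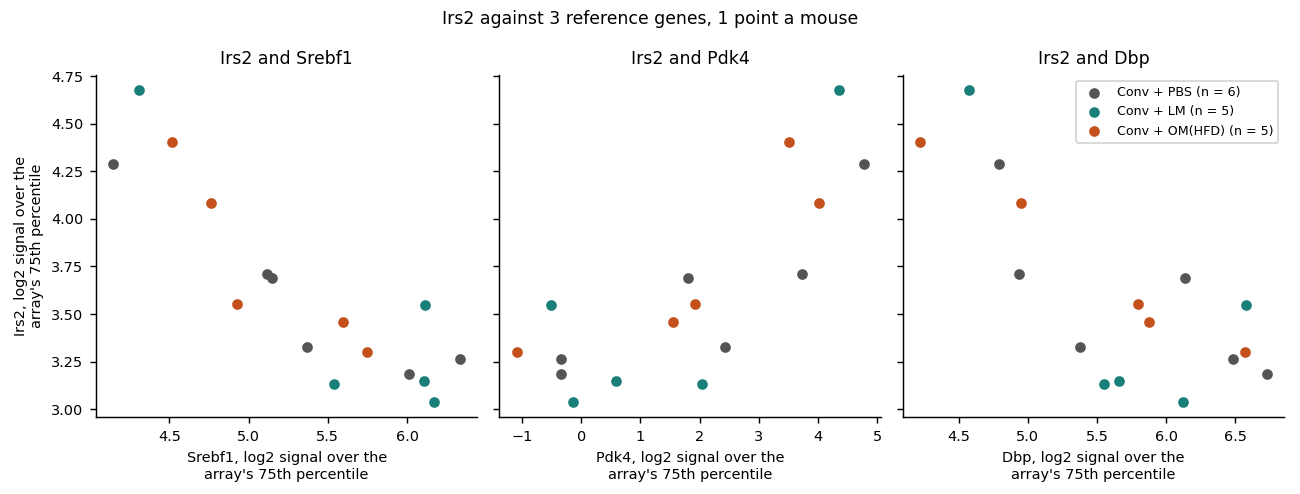
Irs2 (vertical) against Srebf1, Pdk4 and Dbp (horizontal), each as log2 signal over the array's 75th percentile, with 1 point a mouse coloured by group. Irs2 is high where Srebf1 and Dbp are low and Pdk4 is high, in mice of all 3 groups.

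Over all genes, those most like 4 of the set were found by r across the 16 mice, as a description. For Irs2 they were Abhd1 (r = 0.92), Hilpda (0.91), a lipid droplet protein of hepatocytes, and Wdr75 (0.91), and 135 genes had r over 0.8. For Igfbp1 they were St3gal2 (0.91), 4921524J17Rik (0.89) and A630073K07Rik (0.89), with 20 genes over 0.8. For Ppargc1a they were Uchl1 (0.92), Suz12 (0.88), a subunit of Polycomb repressive complex, and Ctsl (0.87), and for Insr Gm15245 (0.89), Fzd5 (0.85) and Nsun6 (0.85). Irs2 had more such genes than Igfbp1, Ppargc1a (20) or Insr (21). These r share the depth and composition of the arrays they were measured on. Of the genes named as most alike, Uchl1 and Fzd5 had the dimmest signals, with mean log2 values of -4.14 and -2.79.

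The other genes of the pathway are given as counts beside the shares of all genes called, which were 3.25%, 3.88% and 2.67% in the 3 comparisons. Of 27 further genes of the insulin signalling cascade, 0 passed an unadjusted limma p of 0.05 in any comparison, and their median log2 fold changes were -0.04, -0.02 and -0.02. Of 19 inhibitors of insulin signalling, 1 was lower in Conv + LM than in Conv + PBS: Enpp1, an ectoenzyme that inhibits the receptor, with a log2 fold change of -0.18 (p = 0.0489, exact permutation p = 0.0519). Of 25 genes of glucagon and cAMP signalling, 1 was higher in that comparison, Crtc3, a paralog of Crtc2, by 0.34 (p = 0.0156, exact permutation p = 0.0368). With lists of this size, 0 or 1 call is close to those shares. Enpp1 was lost under 16 of the 27 alternatives, among them leaving out Conv + PBS mouse 1, 3 or 6 or Conv + LM mouse 13, 15 or 17, and the glucagon count became 4 without Conv + PBS mouse 2 and 3 without Conv + PBS mouse 1. In Conv + OM(HFD) vs. Conv + PBS the glucagon count of 0 rose, to at most 2, under 11 of the 27 alternatives. The inhibitor count of 0 in Conv + OM(HFD) vs. Conv + LM rose to 1 under 9.

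Among 19 further genes that FOXO1 activates and insulin suppresses, 1 passed in Conv + OM(HFD) vs. Conv + PBS and 2 in Conv + LM vs. Conv + PBS, beside 3.25% and 3.88% of all genes. Pik3ip1, an inhibitor of phosphatidylinositol 3-kinase, was higher than in Conv + PBS in both transplanted groups, by 0.37 ± 0.16 in Conv + OM(HFD) (p = 0.0292, exact permutation p = 0.0303) and by 0.43 ± 0.16 in Conv + LM (p = 0.0149, exact permutation p = 0.0498). Both use the same Conv + PBS mice, and its signal was low, with a mean of -2.51 ± 0.27 (SD, n = 6) there. Cdkn1b, a cell cycle inhibitor, was lower in Conv + LM (-0.19 ± 0.08, p = 0.0308, exact permutation p = 0.0476), and its log2 fold change for Conv + OM(HFD) vs. Conv + PBS was -0.16 ± 0.08 (p = 0.0644, exact permutation p = 0.0238). The count for Conv + OM(HFD) was 0 without any 1 of Conv + PBS mice 2, 3 and 4 or Conv + OM(HFD) mice 25, 28 and 29 and 2 without Conv + PBS mouse 1. It was 0 with the authors' processed values or all probes of a gene averaged, and 2 with another background correction (normexp). The count for Conv + LM was 1 without Conv + PBS mouse 2 or 3 or Conv + LM mouse 14, 15 or 17, 0 with all probes averaged and 3 with array weights. Beside these Conv + LM values, all 4 adipose markers had positive log2 fold changes in Conv + LM vs. Conv + PBS (median 0.45), and all 5 Kupffer cell and 4 neutrophil markers negative ones (medians -0.61 and -0.76), with 0 of them at an unadjusted limma p under 0.05. The latter comparisons include Conv + PBS mouse 1, with a neutrophil sum of 30.7 and a Kupffer cell sum of 188. The neutrophil sum was 0.7505 to 1.205 in the other Conv + PBS mice and 0.734 to 1.52 in Conv + LM. The Kupffer cell sum was 32.6 to 47.6 in the other Conv + PBS mice and 25.7 to 39.6 in Conv + LM. The part of these cells in the values of Enpp1, Crtc3, Pik3ip1 and Cdkn1b was not tested. The gluconeogenic genes Pck1 and G6pc did not pass the test, with log2 fold changes of 0.16 and -0.15 for Conv + OM(HFD) vs. Conv + PBS, and 13 of the 19 were negative in that comparison with a median of -0.04.

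Of the insulin-induced genes 9 were tested. For Conv + OM(HFD) vs. Conv + PBS, 3 of the 9 were lower at an unadjusted limma p under 0.05 (3.25% of all genes were called in that comparison). All 3 were lipogenic genes, Fasn (fatty acid synthase), Thrsp (a nuclear factor of lipogenesis) and Elovl6 (a fatty acid elongase), with log2 fold changes of -0.76 ± 0.34 (p = 0.0393, exact permutation p = 0.0628), -0.89 ± 0.32 (p = 0.0144, exact permutation p = 0.0281) and -0.64 ± 0.29 (p = 0.0415, exact permutation p = 0.0584). The count was 1 without any 1 of Conv + PBS mice 2, 4 and 5 or Conv + OM(HFD) mice 28, 29 and 30. The median of the 9 was -0.33 and 8 were negative, beside a median of 0.00 over all genes. Some markers of other liver cells were called in the same comparison. By limma 3 of 5 stellate cell markers were called lower, Lrat by -0.63 (p = 0.000352, exact permutation p = 0.00649), Dcn by -0.26 (p = 0.0362, exact permutation p = 0.0455) and Colec11 by -0.27 (p = 0.0391, exact permutation p = 0.0346). Of 5 endothelial markers 1 was called lower, Clec4g by -0.48 (p = 0.0159, exact permutation p = 0.0130). Not all went down: 1 of the 5 stellate cell markers (Des, 0.54) and 2 of the 5 endothelial markers (the larger Lyve1, 0.17) had positive log2 fold changes. The summed stellate cell markers were 66.1 to 94.0 in Conv + OM(HFD) and 79 to 108 in Conv + PBS, and the endothelial ones 26.7 to 45.5 and 41.0 to 47.0. Their part in the result was not tested. Lipogenic genes were picked out of these same arrays before, so this is no independent evidence of the direction. In Conv + LM vs. Conv + PBS 0 of 9 passed, with a median of -0.14, and in Conv + OM(HFD) vs. Conv + LM 1 of 9 did, Thrsp, with a log2 fold change of -0.998 ± 0.34 (p = 0.00971, exact permutation p = 0.0397), or 3 without Conv + LM mouse 17. The median of the 9 in Conv + OM(HFD) vs. Conv + LM was -0.33. Srebf1, whose product drives lipogenic transcription, had a log2 fold change of -0.24 ± 0.40 in Conv + OM(HFD) vs. Conv + PBS. After adjustment over all genes 0 genes of these lists passed in limma.

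**Figure D5:**
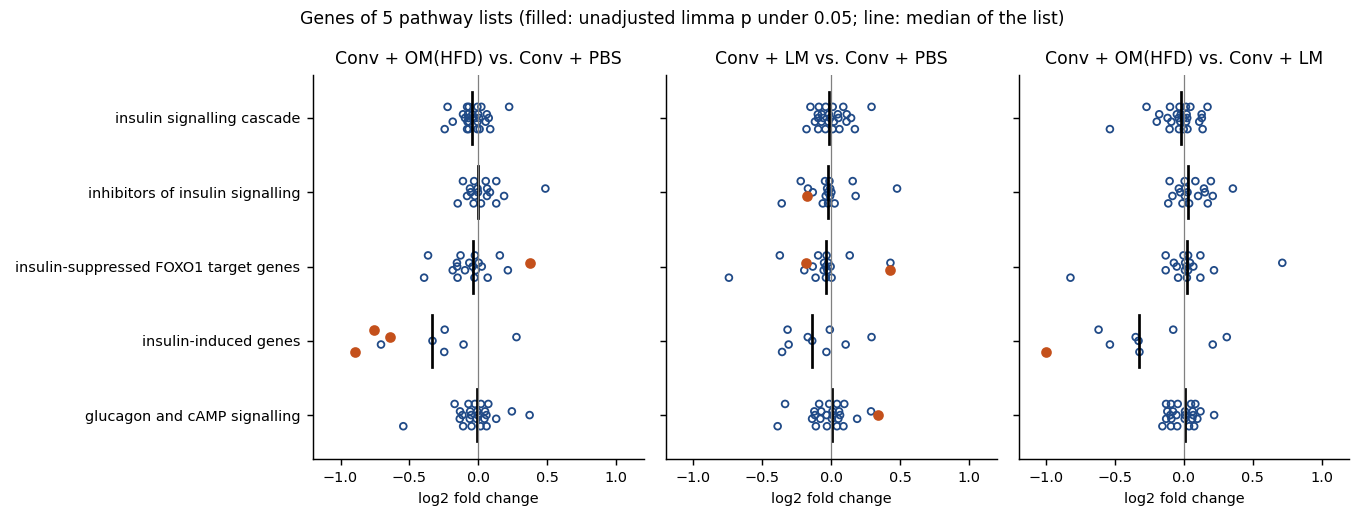
Log2 fold change of the genes of 5 pathway lists in the 3 comparisons, 1 point a gene, filled where the unadjusted limma p was under 0.05, with a line at the median of each list. The insulin-induced genes have the lowest median of the 5 lists in each comparison. Fasn, Thrsp and Elovl6 are filled in Conv + OM(HFD) vs. Conv + PBS and Thrsp in Conv + OM(HFD) vs. Conv + LM, and the cascade has no filled point.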

How the data were processed

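Liver RNA of 16 mice was measured on 1-colour Agilent 8x60K arrays. Intensity values were extracted by the authors with Agilent Feature Extraction 10.10.1.1 and deposited per array. The log2 table deposited by the authors follows the log2 median spot signal with arrays set to a like distribution (column medians 5.49 to 5.52); that step is not given in the sources used here, and the table served as an alternative. Probe coordinates (mm9) were not annotated further.

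After removal of control spots and of outlier spots the spots of each probe were averaged, and log2 of the processed signal minus the 75th percentile of each array was used. Probes well above background on at least 5 arrays were kept, and the probe with the highest mean stood for its gene. Groups were compared with limma 3.58.1 (R 4.3.3) in 1 model over 16 arrays, with Benjamini-Hochberg adjustment, and with exact two-sided permutation tests of the difference in means, whose smallest p is 0.00216 for 5 against 6 mice and 0.00794 for 5 against 5. Correlations used deviations from group means and 100000 permutations within groups (numpy 2.4.6), with adjustment over each family of pairs. The code was tested on simulated data. Named were all 10 genes, list genes at an unadjusted p under 0.05, 7 reference genes (1 of them, counted in the family of pairs, is not reported here) and the 3 genes most like each of 4 members; any other gene was picked once its values were known. The genes and lists were chosen with earlier results of these data known. Alternatives were the background correction (normexp, offset 50), quantile normalization, the authors' values, filters, slide as a block, array weights, probe rules, an unpaired Student's t-test and leaving out each mouse. The paper names that t-test among its general statistics and names no test for the arrays. The number of arrays limits precision, and p-values measure the spread between these mice.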

Additional observations from a re-analysis of the deposited data

Results flagged for a closer look

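In 3 of the 30 gene and group combinations, 1 mouse lay farther from the rest of its group than Dixon's critical value allows, which chance gives in about 1 of 20. Akt2 in Conv + PBS mouse 2 was 4.60, with the next mouse at 4.69 and the whole group within 0.12 on the log2 scale. Foxo3 in Conv + PBS mouse 1 was 0.94, with the next mouse at 1.41, and this mouse had the highest Kupffer cell and neutrophil marker sums. Igfbp1 in Conv + LM mouse 13 was 6.60, with the next mouse at 7.55, and this mouse had the lowest neutrophil and Kupffer cell marker sums of its group, 0.734 against 0.784 to 1.52 and 25.7 against 29.6 to 39.6. The causes were not tested.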

How the results depend on the processing

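The log2 fold changes of the 10 genes were recomputed 810 times. In 41 cases the sign turned, and 28 of these came from leaving out mice. The causes were not tested. The number of the 10 genes at an unadjusted limma p under 0.05 for Conv + OM(HFD) vs. Conv + PBS was 0 and became 1, Foxo3, under normexp background correction, the authors' processed values, slide as a block and array weights. Over leaving out mice it ranged from 0 to 1 in each of the 3 comparisons. With the processing changed, Gcgr was -0.0170 (normexp) and -0.0094 (the authors' values) for Conv + OM(HFD) vs. Conv + PBS, and 0.0023 (slide as a block) and 0.0018 (array weights) for Conv + OM(HFD) vs. Conv + LM. For the latter comparison Insr was -0.0443 (the authors' values) and -0.0158 (array weights), and Akt2 was 0.0114 (the authors' values). Irs1 was -0.0177 for Conv + LM vs. Conv + PBS under array weights. With all probes of a gene averaged, Akt2 was 0.0825, Foxo1 0.0562 and Crtc2 -0.0008 for Conv + LM vs. Conv + PBS, and Foxo1 was -0.0357 and Foxo3 0.0450 for Conv + OM(HFD) vs. Conv + LM.

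Leaving out mice, including mice 1 and 25 together, which was chosen after seeing the data, gave these ranges. For Conv + OM(HFD) vs. Conv + PBS they were -0.0385 to 0.0864 for Foxo1, -0.0205 to 0.0388 for Gcgr and -0.1372 to 0.3335 for Igfbp1. For Conv + LM vs. Conv + PBS they were -0.0244 to 0.0750 for Irs1, -0.3615 to 0.0735 for Irs2, -0.1055 to 0.0134 for Foxo1 and -0.0304 to 0.0635 for Gcgr. For Conv + OM(HFD) vs. Conv + LM they were -0.0866 to 0.1580 for Insr, -0.0648 to 0.0188 for Akt2 and -0.0528 to 0.0410 for Gcgr. Of the 70 pairs with reference genes, 3 passed adjustment, 6 with slide as a block and 0 without the 2 mice farthest from the median, and leaving out mice gave 0 (without Conv + PBS mouse 6 or Conv + LM mouse 17) to 6 (without Conv + PBS mouse 3). Of the members' own pairs 0 passed in every setting run.

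The insulin-induced genes at an unadjusted limma p under 0.05 in Conv + OM(HFD) vs. Conv + PBS numbered 1 to 4 over the alternatives, against 3. Over all genes, calls numbered 555 to 970 in that comparison (663 reported), 564 to 1181 for Conv + LM vs. Conv + PBS (792) and 426 to 862 for Conv + OM(HFD) vs. Conv + LM (545), the first 2 highest with every probe on its own and the last with slide as a block. An unpaired Student's t-test called 608, 746 and 587 of all genes at an unadjusted p under 0.05, 0 after Benjamini-Hochberg adjustment, and 0 of the 10. No paired analysis was run because the mouse numbers do not occur in more than 1 group. The order of the numbers within a group, with which Pdk4 rose, was not fitted as a covariate. With 5 or 6 arrays a group, changes within the intervals given could not be told from 0.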
